A study of Mus musculus with 12 samples.

Results

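Among 22180 mouse genes measured on 12 arrays of pancreatic cells, 132 were set apart by high signal in mature adult acinar cells and 426 by low signal. The values were log2 signals, so a difference of 1 is a 2-fold difference. A gene counted as adult-high when its lowest adult array lay at least 1 above the highest of the 9 other arrays, and as adult-low when its highest adult array lay at least 1 below the lowest of them. This distance is called the gap. The adult-high genes were 0.595% of all genes and the adult-low genes 1.92%. These genes were chosen on the difference between adult cells and the rest, so that difference is described here and carries no test.

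Adult acinar cells, which make the digestive enzymes of the pancreas, and embryonic acinar cells were freshly isolated with collagenase, and their RNA was extracted at once. The third group was acinar-to-ductal metaplasia (ADM), the conversion of acinar cells towards duct-like cells, kept for 7 days in 3D collagen while exposed to TGF-alpha, which activates the EGF receptor, at 50 ng/ml. The fourth was low-passage pancreatic tumor cells grown in standard medium. The strain of every sample was C57Bl6/J wildtype, each group had 3 arrays, and adult age, embryonic day and the origin of the tumor cells were not given in the sources used here. Whether replicates came from different animals or dishes is not labelled, so p-values measure the spread between arrays, which may be technical. Collagen gel, time and TGF-alpha were applied together in ADM and cannot be told apart.

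A mature acinar cell makes and stores digestive enzymes, mostly as inactive zymogens, and releases them when secretagogues such as cholecystokinin or bombesin-like peptides raise its calcium. It carries a very large endoplasmic reticulum (ER), takes up amino acids at a high rate and rarely divides. The transcription factors Ptf1a, Rbpjl and Nr5a2 drive enzyme genes, and Bhlha15 (also called Mist1) organises the secretory apparatus late in maturation.

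The adult arrays carried the acinar label's markers. The carboxypeptidase gene Cpa1 read 13.15, 13.14 and 13.11 on adult arrays, 12.83 to 12.97 on embryonic, 12.19 to 12.70 on ADM and 3.71 to 4.36 on tumor arrays. A background level of 3.62 was set from 1396 odorant and vomeronasal receptor genes, as the 95th percentile of their means per group. Tumor cells therefore read close to background for this enzyme, whereas ADM cultures still read high. Of other cell types' markers, glucagon (Gcg, 10.41 ± 0.19, SD, n = 3) and the fibroblast gene Dcn (9.36 ± 0.03) were well above background on adult arrays, while the fat-cell marker Adipoq (3.16 ± 0.28) was not and the leukocyte marker Ptprc (3.69 ± 0.24) lay next to it. These single genes do not stand for their lists. Adult means were above background for 16 of 19 endocrine, 16 of 17 fibroblast and 13 of 13 endothelial markers. The same held for 6 of 10 adipocyte, 15 of 20 immune, 2 of 3 erythroid and 4 of 7 neural markers. None of the endocrine, fibroblast, adipocyte, endothelial, immune, erythroid or neural markers measured met the rule in either direction. In such bulk samples, fewer cells of a type and less RNA per cell cannot be told apart.

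Embryonic replicate 3 stood apart among the adult-high genes. On 18 of the 132 (13.6%) it read at least 1 above both other embryonic arrays, against 0.875% of all genes; embryonic replicate 1 did so on 0 and embryonic replicate 2 on 1. The enzyme gene Cela1 read 13.06 on it against 12.44 and 12.41 on the other embryonic arrays, whereas Ptf1a read 7.02 against 8.04 and 8.34. Embryonic replicate 2 in turn read 10.51 for albumin (Alb), a liver-cell marker, against 4.76 and 4.68. The part of either in the values below was not tested. Leaving out an array can only add genes under this rule. The adult-high count was 157 without embryonic replicate 3 and 182 without embryonic replicate 2.

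The adult arrays also had a lower upper range: their 75th percentile was 5.04 to 5.10, against 5.39 to 5.51 elsewhere. With quantile normalization 225 adult-high and 282 adult-low genes met the rule, with cyclic loess 215 and 266, and with arrays centred on housekeeping genes 180 and 227. The share of adult-high among both sets moved from 23.7% to 44.4% and 44.7%, and to 44.2% with housekeeping centring. Of the 132 adult-high genes 127, 130 and 126 still met the rule under these scalings, in that order, but of the 426 adult-low genes only 279, 266 and 226 did. With no minimum gap, each of the 132 still lay above all other arrays, and each of the 426 below them.

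The adult-high genes had a median level (of group means) of 8.48 in adult, 6.32 in embryonic, 5.09 in ADM and 4.20 in tumor cells. The nearest other array was embryonic for 117 of them, ADM for 10 and tumor for 5. In tumor cells 42 of the 132 lay at or under background, in ADM 21 and in embryonic cells 5. The adult-low genes ran the other way, with medians of 4.71 in adult, 7.17 in embryonic, 7.36 in ADM and 8.08 in tumor cells, and 31 of the 426 were at or under background in adult cells. Their nearest other array was embryonic for 236, ADM for 158 and tumor for 32. Embryonic cells thus stood next to adult cells in most adult-high genes, while ADM arrays were nearest in 158 of the 426 adult-low genes.

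**Figure D1:**
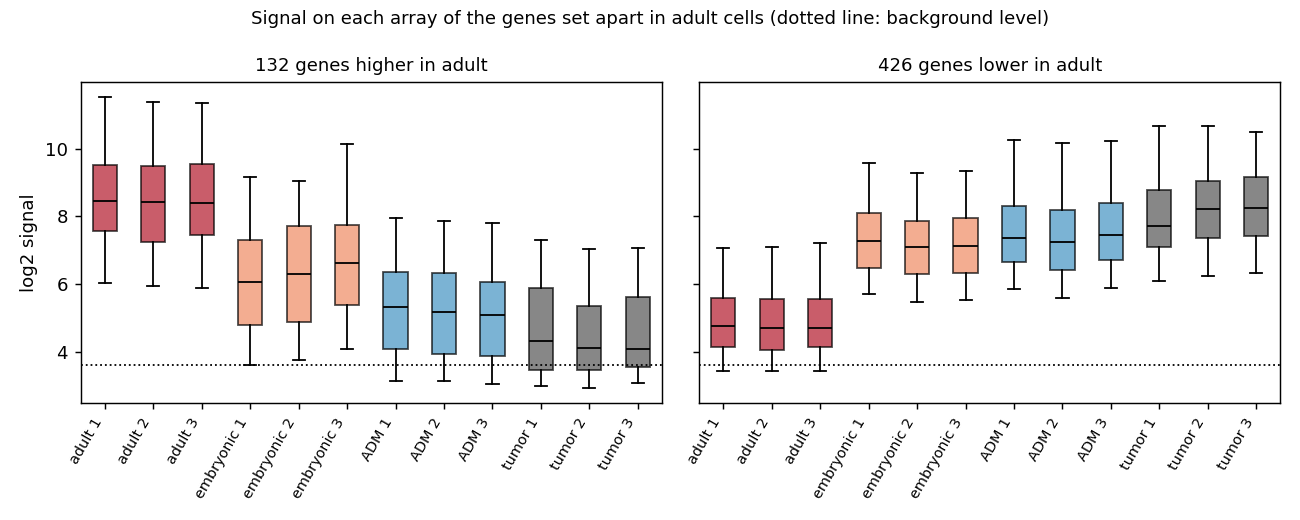
Box plots of log2 signal on each of the 12 arrays for the 132 adult-high genes (left) and the 426 adult-low genes (right); boxes span the quartiles with the median, whiskers the 5th to 95th percentiles, and the dotted line is the background level of 3.62. The adult-high median falls from 8.39 to 8.45 on adult arrays to 4.07 to 4.32 on tumor arrays, with embryonic replicate 3 (6.62) the highest of the other arrays.

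The same rule applied to each other group gave a different balance. Embryonic cells had 268 genes at least 1 above all other arrays (1.21%) and 4 below (0.018%). ADM had 111 above (0.5%) and 3 below (0.0135%), and tumor cells 101 above (0.455%) and 210 below (0.947%). On the deposited values adult cells thus had the most genes set apart by low signal. The other groups were not counted under other scalings, and the adult-low count with housekeeping centring, 227, was close to the tumor count of 210. With no minimum gap, 2025 genes lay above and 2731 below all other arrays in adult cells.

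The gaps of the adult-high genes had a median of 1.27, and 15 reached 2. Lcat, which esterifies cholesterol in lipoproteins, had the widest at 2.88: it read 7.77, 7.59 and 8.04 on adult arrays, 4.47, 4.71 and 4.71 on embryonic, 3.83, 4.0 and 3.96 on ADM, and 4.38, 4.28 and 4.09 on tumor arrays. Its other group means lay within 1 of each other, with ADM the lowest, 0.70 below embryonic and 0.32 below tumor cells. Adult cells were 9-fold above embryonic and 11.7-fold above tumor cells, and further above ADM. Other leading genes were graded: Grpr, Cela3a, Aass, Egf, Hamp2, Derl3 and Bmp3 were called higher in embryonic cells than in both ADM and tumor cells (limma, Benjamini-Hochberg adjusted p under 0.05 and a difference of at least 1). Unc5a, Ptger3 and Glp1r were so called against tumor cells but not against ADM, and Itih4, C1rl, Ctrcos and Chac1 against neither. The leading 15 named genes comprised 4 for signalling receptors (Grpr, Ptger3, Glp1r, Unc5a), 3 for secreted regulators (Egf, Hamp2, Bmp3) and 3 for proteases or protease-related proteins (Cela3a, C1rl, Itih4). The rest were Lcat, the lysine-degrading enzyme gene Aass, the glutathione-degrading enzyme gene Chac1, the ER degradation gene Derl3 and Ctrcos, a transcript opposite to the chymotrypsin C gene.

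**Figure D2:**
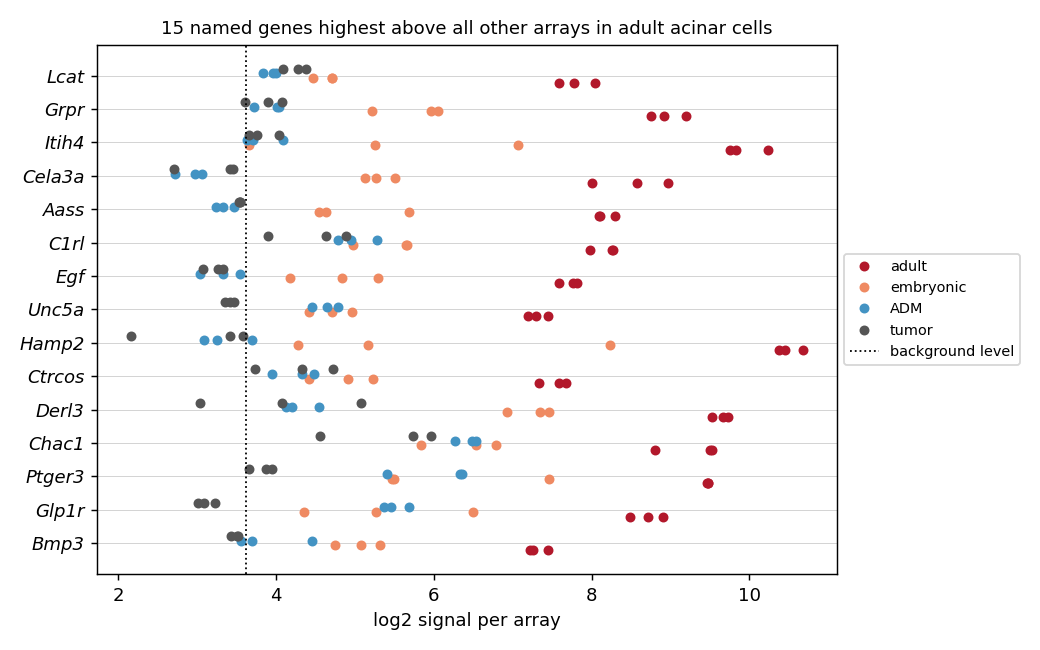
Log2 signal on every array for the 15 named adult-high genes with the widest gap, ordered by gap; colours are the 4 groups, each dot is an array, and the dotted line is the background level. The 3 adult dots of each gene lie to the right of all 9 others, and single embryonic dots of Itih4 (7.07), Hamp2 (8.23) and Ptger3 (7.46), all embryonic replicate 3, lie well to the right of the other embryonic dots.

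Of the digestive proteases, 3 of 15 measured genes were adult-high. Cela3a, an elastase-family protease, read 8.97, 8.57 and 8.0 on adult arrays, 5.26, 5.51 and 5.13 on embryonic, 3.06, 2.97 and 2.72 on ADM, and 3.45, 2.70 and 3.41 on tumor arrays. ADM and tumor arrays were at or under background, so adult cells were 9.28-fold above embryonic and at least 29.7-fold above the other groups. Ctrc, chymotrypsin C, which cuts and so regulates trypsinogen, read 11.42, 11.30 and 11.34 on adult arrays and 5.32, 5.09 and 9.45 on embryonic arrays. It was 3.73 to 4.37 on ADM and tumor arrays. Its gap of 1.85 was set by embryonic replicate 3 and was 5.98 without it. Its opposite-strand transcript Ctrcos read 7.33 to 7.68 on adult arrays and at most 5.23 elsewhere; whether the probe sets of the overlapping pair pick up each other's RNA was not tested. The trypsinogen gene Try5 read 8.85, 9.33 and 9.22 on adult, 6.56, 6.49 and 7.48 on embryonic, 5.21 to 6.04 on ADM and 2.92 to 4.30 on tumor arrays. Close trypsin, elastase, amylase, Reg and kallikrein paralogs can share probes, which was not tested.

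The other 12 proteases and inhibitors did not meet the rule. Cpa1 had a gap of 0.14, since its adult mean was 0.24 ± 0.18 (SE, n = 3 per group) above embryonic (limma adjusted p = 0.336) and 0.72 ± 0.18 above ADM. Calls between groups use limma at a Benjamini-Hochberg adjusted p under 0.05 over all genes and a log2 difference of at least 1. Over all genes, adult against embryonic cells called 580 higher (2.61%) and 2217 lower (10%). Against ADM it called 935 higher (4.22%) and 2766 lower (12.5%), and against tumor cells 1321 higher (5.96%) and 3108 lower (14%). These 3 comparisons share the adult arrays. Of the 15 proteases, adult-high ones included, 3 were called higher in adult than in embryonic cells, 12 than in ADM and 14 than in tumor cells. The 3 called over embryonic cells were the adult-high genes Cela3a, Ctrc and Try5, which the rule chose on that difference, and none of the other 12 was called.

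The upstream sequence of Cela3a is shown because it held more copies of CACCTG than that of any other adult-high gene. CACCTG is the E-box portion of the site bound by the Ptf1a complex. The 250 bases before the start (chr4:137409792-137410041, GRCm38.p6, RefSeq, minus strand, 5′ to 3′) carry 4 copies, in capitals.
Cela3a promoter: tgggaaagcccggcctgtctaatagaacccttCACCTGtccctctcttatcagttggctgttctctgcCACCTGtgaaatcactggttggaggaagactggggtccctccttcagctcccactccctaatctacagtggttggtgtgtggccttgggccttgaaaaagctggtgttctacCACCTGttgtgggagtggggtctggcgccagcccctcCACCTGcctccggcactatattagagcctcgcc
Of 132 adult-high genes, 111 had such a sequence, as had 348 of the 426 adult-low genes and 16989 of all genes. CACCTG on either strand was found in 25.2% of the adult-high sequences, 8.33% of the adult-low and 16.8% of all. In the adult-high genes, 1 sequence held 4 copies, as did 8 of all 16989. The partner motif of the complex, TTTCCC, was in 18.9%, 22.7% and 22.7%. No motif searched contained another, the motifs were chosen with the genes known, and these shares are descriptions with no test.

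Of 10 lipases, amylases and nucleases, only Amy1, the salivary-type amylase gene, met the rule. It read 9.64, 10.01 and 9.84 on adult arrays, 6.77, 7.41 and 8.08 on embryonic, 6.28 to 6.56 on ADM and 5.03 to 5.61 on tumor arrays. Adult cells were 5.32-fold above embryonic and 22.8-fold above tumor cells. Of 17 granule and accessory secreted proteins, 3 met it. Of the 17, those 3 included, 10 were called higher in adult than in embryonic cells and 1 lower. Dmbt1, a mucin-like scavenger receptor protein, read 12, 12.05 and 12.13 on adult, 9.13, 8.98 and 10.74 on embryonic, 10.40, 9.87 and 9.25 on ADM, and 4.91, 4.22 and 5.47 on tumor arrays. ADM and embryonic arrays overlapped for this gene, and tumor arrays lay far below both. Reg3d, a secreted lectin-like protein of the Reg family, read 11.63, 11.62 and 11.64 on adult arrays, 7.60, 7.75 and 10.35 on embryonic, 5.74 to 7.09 on ADM and 2.50 to 2.93 on tumor arrays. Itih4, a heavy chain of the inter-alpha-trypsin inhibitor family, read 10.23, 9.75 and 9.83 on adult arrays and 3.66, 5.25 and 7.07 on embryonic. It lay at 3.63 to 4.09 on ADM and tumor arrays. Its embryonic arrays spread over more than 3 log2 units, with replicate 3 on top.

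Glandular kallikreins, serine proteases encoded by a gene cluster, were looked at after the values had been seen. Of 11 measured, 3 were adult-high: Klk1b24, Klk1b11 and Klk1b5. Klk1b5 read 11.66, 11.62 and 11.49 on adult arrays, 9.17, 8.98 and 10.21 on embryonic, 4.73 to 6.31 on ADM, and 3.01 to 3.73 on tumor arrays. Klk1b11 read 10.80 to 11.22 on adult, 7.13 to 9.31 on embryonic and 3.87 to 4.87 on ADM and tumor arrays, which overlapped.

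Among 12 acinar transcription factors, Bhlha15 alone met the rule. It read 10.01, 10 and 10.13 on adult arrays, 7.56, 8.21 and 7.83 on embryonic, 4.28, 3.94 and 4.25 on ADM, and 4.0, 4.44 and 3.95 on tumor arrays. The 4 groups fell into 3 levels without overlap, ADM and tumor cells sharing the lowest; adult cells were 4.53-fold above embryonic and 59.3-fold above ADM. Ptf1a had a gap of 0.46, Rbpjl of 0.15 and Nr5a2 of 0.08. Ptf1a was 1.08 ± 0.36 (SE, n = 3 per group) higher in adult than in embryonic cells (limma adjusted p = 0.0393). Its embryonic arrays read 8.04, 8.34 and 7.02, and only embryonic replicate 3 lay 1 or more below the adult arrays (8.80 to 8.92). Rbpjl (0.85 ± 0.23, adjusted p = 0.0137) and Nr5a2 (0.73 ± 0.23, adjusted p = 0.0303) were below the minimum of 1. All 3 were called higher in adult than in ADM and tumor cells. The upstream sequence of Bhlha15 (chr5:144190036-144190285, GRCm38.p6, RefSeq, plus strand) is shown because the gene is the one factor set apart, and it carries 2 copies of the CACCTG E-box as its reverse complement CAGGTG, in capitals.
Bhlha15 promoter: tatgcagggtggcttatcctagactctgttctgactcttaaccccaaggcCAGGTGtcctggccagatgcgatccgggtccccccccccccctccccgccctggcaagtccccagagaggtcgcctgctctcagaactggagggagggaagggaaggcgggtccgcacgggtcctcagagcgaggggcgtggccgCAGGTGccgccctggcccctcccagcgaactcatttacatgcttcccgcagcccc
Bhlha15 itself is known to bind other E-boxes. CATATG was in 2.7% of adult-high, 0.287% of adult-low and 2.64% of all sequences, and CAGCTG in 11.7%, 14.1% and 12.2%.

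Of 19 genes for secretagogue receptors and calcium signalling, 2 were adult-high. Grpr, the receptor for gastrin-releasing peptide and bombesin, read 8.92, 9.20 and 8.75 on adult arrays, 5.22, 6.05 and 5.96 on embryonic, 4.01, 4.04 and 3.72 on ADM, and 3.90, 3.61 and 4.07 on tumor arrays. Adult cells were 9.28-fold above embryonic and 32.8-fold above ADM cells, whose arrays overlapped those of tumor cells. Gna14, a G-protein subunit of the Gq class that couples such receptors to phospholipase C, read 6.77, 6.03 and 5.99 on adult, 4.06 to 4.96 on embryonic and 3.13 to 3.73 on the other arrays. The cholecystokinin receptor gene Cckar had a gap of only 0.40 and was 0.76 ± 0.22 (SE, n = 3 per group) higher in adult than in embryonic cells (limma adjusted p = 0.0181). It was 3.39 ± 0.22 higher than in ADM (adjusted p = 1.1e-07). The bombesin receptor was therefore set apart in adult cells and the cholecystokinin receptor was not.

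Other receptor genes were also adult-high. Ptger3, the EP3 receptor of prostaglandin E2, read 9.48, 9.47 and 9.46 on adult arrays and 5.50, 5.47 and 7.46 on embryonic. It read 6.36, 5.4 and 6.33 on ADM and 3.66 to 3.95 on tumor arrays. Glp1r, the receptor of glucagon-like peptide 1, read 8.91, 8.48 and 8.71 on adult, 5.26, 4.35 and 6.50 on embryonic, 5.45, 5.69 and 5.37 on ADM, and 3.01 to 3.23 on tumor arrays. Beta cells carry this receptor too, and their marker Ins2 read 6.45 ± 0.96 (SD, n = 3) on adult against 8.42 ± 0.26 on embryonic arrays. The 19 endocrine markers summed (log2) to 11.2 to 11.7 on adult, 13.64 to 13.96 on embryonic, 10.2 to 11.1 on ADM and 8.09 to 8.61 on tumor arrays. Their part in the Glp1r values was not tested. Unc5a, a netrin receptor, read 7.30, 7.19 and 7.44 on adult arrays and at most 4.96 elsewhere. The gene of its ligand netrin-1, Ntn1, picked out after the values were seen, read 7.26, 6.79 and 7.11 on adult arrays and at most 5.56 elsewhere. Also named afterwards, the VIP receptor gene Vipr2 read 5.61, 5.62 and 5.58 on adult arrays against at most 4.08 elsewhere, and the UDP-glucose receptor gene P2ry14 9.24, 9.11 and 9.19 against at most 7.64. Of 16 connexin genes measured, a list added after the values were seen, 2 were adult-high, 1 was adult-low and 13 were neither. The adult-high ones were Gjb1 (7.78 to 8.40) and Gjb2 (9.45 to 9.99), whose proteins couple acinar cells through gap junctions. Gja1 was adult-low (4.78 to 4.95 against 6.92 to 9.05 elsewhere).

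Secreted growth factors and hormones formed a further group. Egf, the prototype EGF receptor ligand, read 7.58, 7.82 and 7.76 on adult arrays, 4.17, 4.83 and 5.29 on embryonic, and 3.04 to 3.54, under background, on ADM and tumor arrays. Adult cells were 7.76-fold above embryonic and at least 17.2-fold above the others. Bmp3, of the bone morphogenetic protein family, read 7.22, 7.25 and 7.44 on adult arrays and at most 5.31 elsewhere. Of 25 plasma proteins and hormones, 4 were adult-high; the list's median difference from embryonic cells was -0.91, with those 4 called higher and 5 others lower in adult cells. Hamp2, a hepcidin-family peptide gene, read 10.68, 10.38 and 10.45 on adult, 5.17, 4.28 and 8.23 on embryonic, and 2.16 to 3.69 on ADM and tumor arrays. It was at least 118-fold above both ADM and tumor cells, and its gap of 2.15 was 5.21 without embryonic replicate 3. Fgf21, a stress-induced endocrine factor abundant in the exocrine pancreas, read 9.11, 7.93 and 9.58 on adult arrays, 3.62, 4.25 and 6.17 on embryonic, and 3.48 to 4.46 elsewhere. Its adult SD of 0.85 was among the wide ones, against a median of 0.174 over the 132 genes. Gal, the neuropeptide galanin, read 11.92, 11.96 and 11.94 on adult, 10.03, 9.56 and 10.75 on embryonic, 3.89 to 4.04 on ADM, and 2.69 to 3.26 on tumor arrays. Vtn, the adhesive plasma protein vitronectin, read 10.9, 11 and 10.73 on adult, 9.33, 9.53 and 9.06 on embryonic, and 3.39 to 3.90 on ADM and tumor arrays. On the embryonic array with high albumin, Hamp2 was the lowest and Vtn the highest of the 3 embryonic arrays.

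The ER was represented by folding and degradation genes. Of 33 ER folding and quality control genes, 4 were adult-high. Of the 33, 11 were called higher in adult than in embryonic cells, 19 than in ADM and 23 than in tumor cells. In turn 0, 1 and 1 were called lower. The 33 include the 4 adult-high genes, which the rule chose on such differences. The list's median difference from embryonic cells was 0.81, against 0.09 for all genes. Derl3, which acts in moving misfolded proteins out of the ER for degradation, read 9.73, 9.52 and 9.66 on adult, 6.93, 7.34 and 7.46 on embryonic, 4.54, 4.2 and 4.13 on ADM, and 5.07, 3.03 and 4.07 on tumor arrays. Adult cells were 5.25-fold above embryonic and 40.7-fold above ADM. Its degradation partner Sel1l read 11.58, 11.40 and 11.36 on adult, 9.67 to 10.31 on embryonic, 8.24 to 8.65 on ADM and 7.18 to 7.71 on tumor arrays. Ero1b, the oxidase that supplies disulfide bonds in secretory cells, read 11.53, 11.37 and 11.36 on adult, 9.50 to 10.14 on embryonic, 6.06 to 6.64 on ADM and 5.07 to 5.51 on tumor arrays. Erp27, a pancreas-rich relative of protein disulfide isomerase, took the same order, from 11.67 to 11.82 in adult and 10.46 to 10.54 in embryonic cells to 3.57 to 4.10 in tumor cells. None of 33 ER translocation and vesicle transport genes, and none of 19 granule exocytosis genes, met the rule, although 13 and 17 of the former were called higher in adult than in ADM and tumor cells.
The upstream sequence of Derl3 (chr10:75893148-75893397, GRCm38.p6, RefSeq, plus strand) is shown because it combines 1 CACCTG with 3 copies of CCACG or its complement CGTGG, the part of the ER stress element that unfolded-protein-response factors contact; all are in capitals.
Derl3 promoter: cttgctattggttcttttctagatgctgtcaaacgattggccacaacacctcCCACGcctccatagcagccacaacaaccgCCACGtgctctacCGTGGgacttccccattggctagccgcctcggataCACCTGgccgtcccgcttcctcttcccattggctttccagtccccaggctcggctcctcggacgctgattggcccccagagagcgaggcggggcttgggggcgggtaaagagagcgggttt
CCACG was in 38.7% of adult-high, 40.2% of adult-low and 32.9% of all upstream sequences, so it was about as frequent in both sets.

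Amino acid metabolism supplied 4 of 29 measured genes. Aass, which starts lysine breakdown, read 8.09, 8.30 and 8.11 on adult, 4.54, 4.63 and 5.69 on embryonic, and 3.24 to 3.54, under background, on all ADM and tumor arrays. Bcat2, the mitochondrial transaminase of leucine, isoleucine and valine, read 9.43, 9.15 and 9.33 on adult, 7.55 to 7.93 on embryonic, 6.37 to 6.75 on ADM and 5.92 to 7.12 on tumor arrays. Gatm, the first enzyme of creatine synthesis, read 10.77, 10.50 and 10.47 on adult, 8.94 to 9.20 on embryonic, 5.77 to 7.28 on ADM and 7.26 to 8.34 on tumor arrays. Ahcy, which clears S-adenosylhomocysteine, read 7.63, 7.73 and 7.49 on adult arrays and at most 6.18 elsewhere. Slc7a8, an exchanger of neutral amino acids, was the only one of 18 amino acid transporters, at 11.05, 10.81 and 11.07 on adult, 7.61, 7.72 and 9.51 on embryonic, 5.66 to 6.81 on ADM and 3.53 to 3.77 on tumor arrays.

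Whole pathways around these genes were drawn up after the values had been seen. Of 25 measured genes of branched-chain amino acid breakdown, 5 were adult-high, namely Bcat2, Bckdha (a subunit of the committing dehydrogenase), Mccc1 (leucine branch), Hibch (valine branch) and Aldh6a1 (valine branch). Aldh6a1 read 10, 9.96 and 9.92 on adult, 8.68 to 8.75 on embryonic, 5.92 to 6.05 on ADM, and 6.40, 4.04 and 4.29 on tumor arrays. Of the 25, 11 were called higher in adult than in embryonic cells, 18 than in ADM and 15 than in tumor cells. In turn 0, 1 and 1 were called lower, and the medians were 0.90, 1.82 and 1.71. The 25 include the 5 adult-high genes, which the rule chose on these differences. Of 24 one-carbon and methionine cycle genes, 6 were adult-high: Gatm, Ahcy, Adk (adenosine kinase), Sardh (sarcosine dehydrogenase), Aldh1l2 (mitochondrial formyl-tetrahydrofolate dehydrogenase) and Ggh (folate polyglutamate hydrolase). Of these 24, 12 were called higher in adult cells in each of the 3 comparisons, and 1, 0 and 2 lower. The 24 likewise include the 6 adult-high genes. Bcat2, Gatm and Ahcy were also counted among the amino acid metabolism genes above. None of 32 oxidative phosphorylation genes and none of 24 fatty acid oxidation and ketone genes met the rule.

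Transport and regulatory genes completed the set. Slc39a5, a zinc importer, read 9.98, 10.04 and 10.06 on adult, 7.74, 8.07 and 7.97 on embryonic, 4.03, 3.82 and 3.67 on ADM, and 3.76, 4.89 and 3.64 on tumor arrays. Aqp12, an acinar water-channel protein, read 11.91, 11.92 and 11.89 on adult, 10.33 to 10.44 on embryonic, 4.33 to 5.77 on ADM and 3.78 to 4.15 on tumor arrays. Chac1, which degrades glutathione, read 9.53, 8.80 and 9.50 on adult arrays and at most 6.79 elsewhere, with embryonic and ADM arrays overlapping. C1rl, a complement C1r-like protease gene, read 7.98, 8.26 and 8.27 on adult arrays and at most 5.66 elsewhere.

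The 132 include a microRNA locus, Mir216a, whose products are enriched in pancreas. It read 4.66, 4.97 and 5.25 on adult, 2.90, 3.05 and 3.55 on embryonic, and 2.57 to 3.43 on ADM and tumor arrays, so all 3 other groups were under background and adult cells were at least 2.53-fold above it. Such a probe set reads total RNA of the locus and does not measure the mature forms. They are shown with the seed, bases 2 to 8, in capitals (chr11:28757018-28757039 and chr11:28757058-28757079, GRCm38.p6, RefSeq, plus strand, 5′ to 3′); the arms do not share a seed.
mmu-miR-216a-5p: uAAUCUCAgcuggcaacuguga
mmu-miR-216a-3p: cACAGUGGucucugggauuaug

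How the adult-high genes differed among the other 3 groups was not set by the rule, which used only the highest of the 9 other arrays. Of the 132, 88 had means ordered embryonic, then ADM, then tumor. Between embryonic cells and ADM, limma called 51 adult-high genes higher in embryonic cells and 0 lower (by the same test 4.91% and 4.55% of all genes). Between embryonic and tumor cells it called 82 higher and 0 lower (all genes 7.8% and 6.53%). Between tumor cells and ADM it called 3 higher and 33 lower (all genes 3.28% and 5.07%). The median differences were 0.84, 1.36 and -0.37, against -0.00, -0.07 and 0.06 over all genes. Without embryonic replicate 3 the first 2 counts were 47 and 79. At an unadjusted limma p under 0.05 and no minimum difference, 85 were higher and 1 lower in embryonic cells than in ADM, and 105 and 0 than in tumor cells.

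Embryonic cells differed most from ADM in Gal, Vtn and Aqp12. Gal was 6.15 ± 0.25 (SE, n = 3 per group) higher in embryonic cells than in ADM (limma adjusted p = 2.64e-09), Vtn 5.72 ± 0.18 (adjusted p = 4.05e-10) and Aqp12 5.32 ± 0.27 (adjusted p = 1.67e-08). In Bhlha15 the embryonic level exceeded ADM by 3.71 ± 0.19 (adjusted p = 2.05e-08) and tumor by 3.74 ± 0.19, while tumor and ADM differed by -0.03 ± 0.19 (adjusted p = 0.964). Another pattern separated tumor cells from both embryonic cells and ADM. Dmbt1 differed by -0.22 ± 0.43 between embryonic cells and ADM (adjusted p = 0.846) and was 4.97 ± 0.43 lower in tumor cells than in ADM (adjusted p = 3.24e-06). Cyfip2, an actin-regulating WAVE complex protein, differed by -0.33 ± 0.16 between embryonic cells and ADM (adjusted p = 0.225) and was 3.07 ± 0.16 lower in tumor cells than in ADM (adjusted p = 3.96e-08). Glp1r (2.39 ± 0.38, adjusted p = 0.000664) and Ptger3 (2.20 ± 0.42, adjusted p = 0.0028) were lower in tumor cells than in ADM as well. The 3 genes higher in tumor cells than in ADM were Gatm (1.35 ± 0.33, adjusted p = 0.0132), Mcrip2 (1.35 ± 0.25, adjusted p = 0.0019) and Dagla, a diacylglycerol lipase (1.05 ± 0.18, adjusted p = 0.00107). For Lcat, in contrast, none of the 3 differences reached 1.

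**Figure D3:**
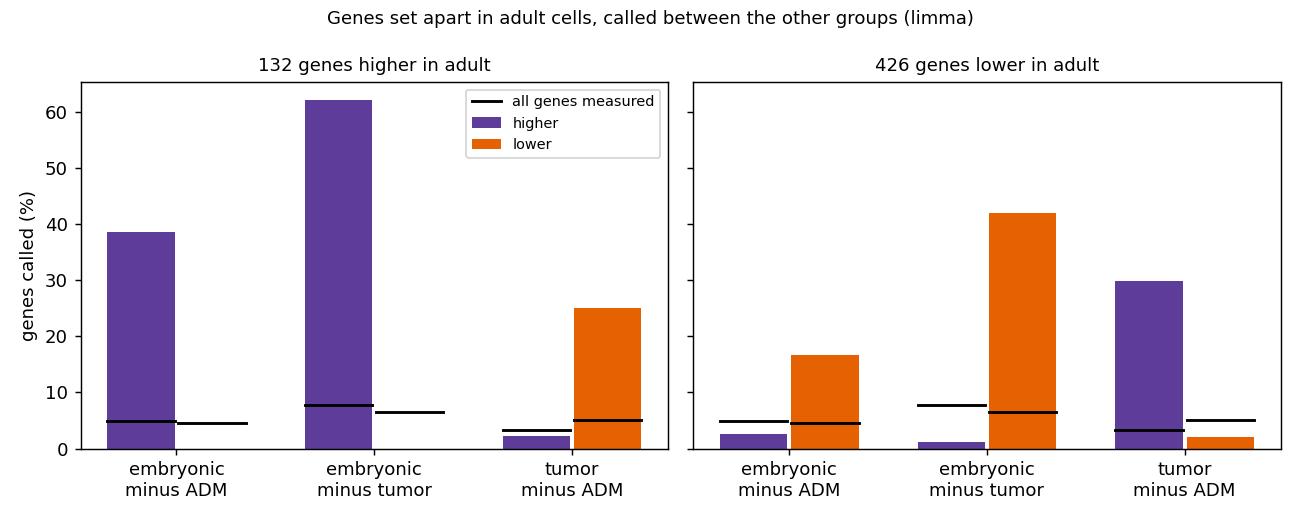
Bars give the percentage of the 132 adult-high (left) and 426 adult-low (right) genes called higher or lower by limma between the 3 other groups; black lines give the same percentage over all 22180 genes. Adult-high genes were called in 1 direction only for embryonic minus ADM (51 higher, 0 lower) and embryonic minus tumor (82 and 0), and adult-low genes mostly in the opposite one (71 and 179 lower).

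The adult-low genes were led by the cell cycle. Of 25 mitosis genes, 24 were at least 1 below all other arrays, and Cdc20 was the exception. Cks2, a subunit that binds cyclin-dependent kinases, had the widest gap of all at 4.56. It read 4.36, 4.28 and 3.61 on adult, 9.35, 8.93 and 9.19 on embryonic, 9.39, 8.92 and 9.17 on ADM, and 9.34, 10.37 and 10.41 on tumor arrays. Embryonic and ADM arrays overlapped throughout, at 33.7-fold and 33.8-fold above adult. The mitotic kinase gene Cdk1 read 3.71, 3.83 and 5.04 on adult, 9.19, 9.08 and 8.79 on embryonic, 8.76, 8.10 and 8.58 on ADM, and 9.56, 10.59 and 10.70 on tumor arrays. Its partner cyclin gene Ccna2 read 4.55, 4.36 and 4.30 on adult, 8.6 to 8.95 on embryonic, 7.88 to 8.30 on ADM and 8.83 to 10.41 on tumor arrays. Ndc80, of the kinetochore, read 2.87, 2.95 and 3.33 on adult arrays, under background, against 6.50 to 9.09 elsewhere. Anln, a scaffold of the cleavage furrow, read 3.18, 3.21 and 3.35 on adult arrays, also under background, against 6.59 to 9.55 elsewhere.

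DNA replication followed, with 13 of 28 genes adult-low, among them 6 subunits of the MCM helicase. Mcm6 read 4.32, 4.18 and 4.31 on adult, 8.49, 8.23 and 8.39 on embryonic, 8.17, 8.42 and 8.24 on ADM, and 8.56, 8.99 and 8.96 on tumor arrays. Its 9 other arrays lay between 8.17 and 8.99, and adult cells were 16.1-fold to 23.7-fold below them. Lig1, the ligase that joins Okazaki fragments, read 3.70, 3.28 and 3.51 on adult, 7.92, 7.93 and 7.90 on embryonic, 6.87 to 6.99 on ADM and 8.01 to 8.85 on tumor arrays. Mcm4 (4.11 to 4.90 in adult cells) and Rrm1, a subunit of ribonucleotide reductase (4.09 to 4.85), read at least 7.45 and 7.33 elsewhere. The remaining 15, Pcna and Cdc6 included, missed the rule. All 28 were called lower in adult than in tumor cells, 25 than in embryonic cells and 23 than in ADM (all genes 14%, 10% and 12.5%). The medians were -1.82 against embryonic, -1.63 against ADM and -2.99 against tumor cells. The 28 include the 13 adult-low genes, which the rule chose on such differences. Against ADM, quantile normalization called 19 lower, loess 17 and housekeeping centring 16.
The upstream sequences of Cdk1 (chr10:69352913-69353162, minus strand) and Mcm6 (chr1:128359706-128359955, minus strand), GRCm38.p6, RefSeq, are shown because they hold matches to known cell-cycle motifs. Capitals mark the E2F-type TTCGCGC (or GCGCGAA) of replication genes and the CHR motif TTTGAA of mitosis genes. Cdk1 holds both motifs and Mcm6 only the E2F-type one. These are matches of letters, and binding to them was not tested.
Cdk1 promoter: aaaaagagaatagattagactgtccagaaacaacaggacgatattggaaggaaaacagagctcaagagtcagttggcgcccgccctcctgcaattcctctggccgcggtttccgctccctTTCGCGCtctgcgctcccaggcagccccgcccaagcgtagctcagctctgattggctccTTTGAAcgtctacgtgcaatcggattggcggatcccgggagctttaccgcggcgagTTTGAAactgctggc
Mcm6 promoter: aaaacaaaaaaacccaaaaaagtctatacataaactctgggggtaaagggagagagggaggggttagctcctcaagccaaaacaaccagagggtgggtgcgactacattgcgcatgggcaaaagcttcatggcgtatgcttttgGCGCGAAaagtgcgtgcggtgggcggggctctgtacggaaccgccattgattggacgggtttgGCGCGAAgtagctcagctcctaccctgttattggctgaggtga
TTCGCGC was in 3.45% of adult-low, 1.8% of adult-high and 1.64% of all sequences, and TTTGAA in 12.9%, 9.91% and 14.3%. TGACGTCA, the cAMP response element, was in 2.3%, 2.7% and 2.09%.

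**Figure D4:**
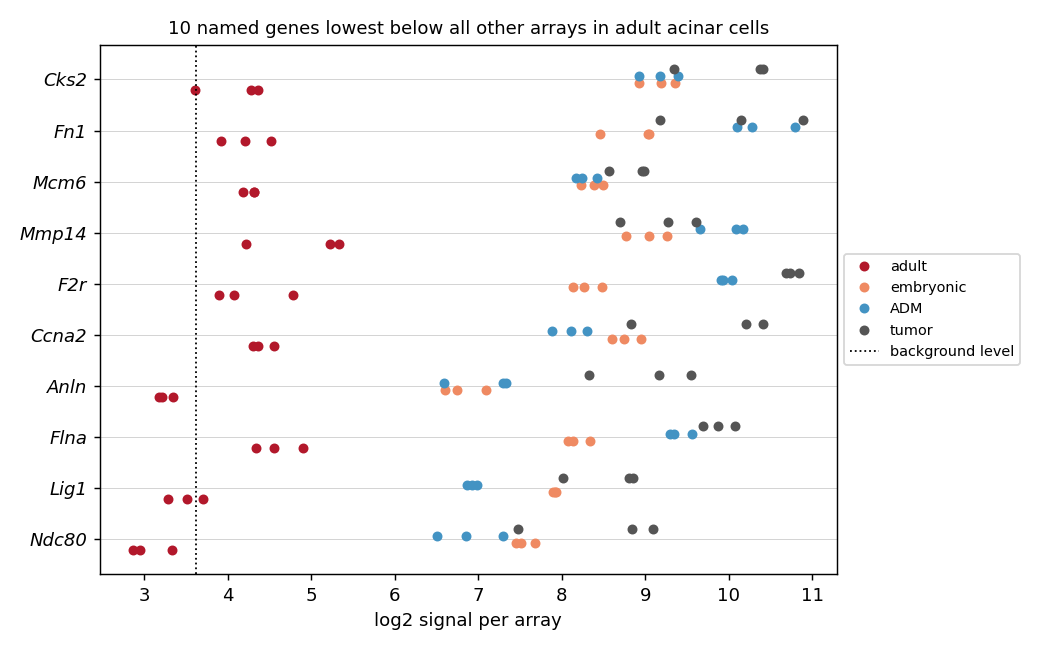
Log2 signal on every array for the 10 named adult-low genes with the widest gap; colours are the 4 groups, each dot is an array, and the dotted line is the background level of 3.62. All adult dots lie left of the 9 others by at least 3.17, and for Anln, Lig1 and Ndc80 the adult mean is under background.

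Cytoskeleton and motility genes gave 15 of 38, including 6 tubulins. Flna, filamin A, which crosslinks actin, read 4.90, 4.55 and 4.34 on adult, 8.34, 8.08 and 8.13 on embryonic, 9.29, 9.34 and 9.56 on ADM, and 9.87, 9.69 and 10.07 on tumor arrays. The 4 groups did not overlap. The calponin gene Cnn2 (3.50 to 3.80 in adult cells) and the membrane-binding annexins Anxa1 (4.90 to 5.09) and Anxa2 (6.34 to 6.98) took the same order: embryonic, ADM, tumor. The intermediate filament gene Vim read 8.09, 8.32 and 8.24 on adult arrays against 9.82 to 12.09 elsewhere, so it was adult-low while well above background. Outside this list, F2r, the thrombin receptor PAR1, read 3.90, 4.78 and 4.07 on adult, 8.13 to 8.48 on embryonic, 9.91 to 10.04 on ADM and 10.68 to 10.84 on tumor arrays.

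Of 26 matrix and adhesion genes, 9 were adult-low. With those 9 included, 22 were called lower in adult than in embryonic cells, 25 than in ADM and 14 than in tumor cells. In turn 0, 0 and 3 were called higher. Housekeeping centring called 12 lower and 6 higher against tumor cells. Fn1, fibronectin, read 4.52, 3.92 and 4.21 on adult, 9.03, 8.46 and 9.04 on embryonic, 10.28, 10.10 and 10.79 on ADM, and 10.89, 9.17 and 10.15 on tumor arrays. Mmp14, a membrane-bound collagenase, read 5.33, 4.22 and 5.22 on adult arrays against 8.70 to 10.17 elsewhere. Timp1, an inhibitor of such proteases, was most distant in ADM: 3.72, 3.66 and 4.26 on adult, 6.18 to 6.38 on embryonic, 10.68 to 11.24 on ADM and 7.97 to 9.33 on tumor arrays. Nid1, nidogen of basement membranes, read 5.77, 6.28 and 6.79 on adult arrays against 9.12 to 11.07 elsewhere. Fibroblast markers moved with these genes in part: 14 of 17 were called lower in adult than in embryonic cells, 7 than in ADM and 0 than in tumor cells, where 10 were called higher in adult cells. Their summed signal (log2) was 11.03 to 11.06 on adult, 12.5 to 13.3 on embryonic, 11.5 to 12.2 on ADM and 8.18 to 8.48 on tumor arrays. Tumor arrays read Dcn at 3.17 ± 0.16 (SD, n = 3), under background, and Fn1 at 9.17 to 10.89; the part of fibroblasts in the embryonic and ADM values was not tested.

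Of 16 ductal markers, 3 were adult-low. With those 3 included, 8 were called lower in adult than in embryonic cells, 10 than in ADM and 7 than in tumor cells. In turn 0, 1 and 4 were called higher, and the medians were -1.315, -2.707 and -0.105. Housekeeping centring called 7 lower and 6 higher against tumor cells. The ductal markers were thus not uniformly low in adult cells. The keratin gene Krt7 read 5.74, 5.96 and 6.02 on adult, 7.55 to 7.77 on embryonic, 9.57 to 9.79 on ADM and 10.12 to 10.34 on tumor arrays. Tspan8, a tetraspanin, read 3.11, 4.12 and 4.21 on adult, 6.67 to 7.77 on embryonic, and 10.27 to 10.85 on ADM and tumor arrays, which overlapped. Car2, carbonic anhydrase 2 of bicarbonate-secreting ducts, read 2.83, 3.81 and 3.17 on adult arrays and 5.97 to 8.50 elsewhere, the embryonic arrays overlapping both other groups. Krt7 and Tspan8 were lower in embryonic cells than in ADM, by 2.02 ± 0.14 (SE, n = 3 per group, limma adjusted p = 4.04e-07) and 3.22 ± 0.31 (adjusted p = 6.57e-06). Krt19 (6.92 ± 0.08 in adult, 7.82 ± 0.16 in embryonic, SD, n = 3) missed the rule.

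Of 31 chromatin and polycomb enzymes, 6 were adult-low and 0 adult-high. Uhrf1, which recruits the maintenance methyltransferase to replicated DNA, read 3.88, 3.64 and 3.89 on adult arrays against 6.03 to 8.31 elsewhere, and that enzyme's gene Dnmt1 5.61, 5.46 and 5.02 against 7.64 to 9.20. The deacetylase gene Hdac1 read 5.50, 7.11 and 6.52 on adult arrays, a wide spread, against 9.23 to 9.74 elsewhere. Hmgb2, a chromatin protein of dividing cells, read 4.23 to 4.68 against 6.65 to 9.03. The polycomb methyltransferase gene Ezh2 read 5.43, 5.79 and 4.72 against 7.58 to 9.62. The polycomb genes Ezh1, Eed, Suz12, Rnf2 and Bmi1 did not meet the rule.

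Metabolic lists differed in their share of adult-low genes. Of 18 glycolysis genes, 8 were called lower in adult than in embryonic cells, 12 than in ADM and 10 than in tumor cells, with 0, 0 and 1 higher and medians of -0.81, -1.56 and -1.31. Against embryonic cells quantile normalization called 2 lower and loess 3, and against tumor cells housekeeping centring called 4 lower and 2 higher. Slc2a1, the glucose transporter GLUT1, was the one of the 18 that was adult-low, at 7.75, 7.70 and 7.58 on adult, 9.04 to 9.14 on embryonic, 10.30 to 10.78 on ADM and 9.48 to 10.26 on tumor arrays. Of 30 xenobiotic and glutathione enzymes, Gsta4, a glutathione transferase that detoxifies lipid aldehydes, was adult-low (5.11 to 5.64 against 8.16 to 11.20), and Gstk1, a mitochondrial and peroxisomal one, was adult-high (8.42 to 8.62 against at most 7.38). Of 21 cholesterol synthesis genes, a list added after the values were seen, 8 were adult-low and 0 adult-high. Cyp51, which demethylates lanosterol, read 4.83, 4.72 and 4.75 on adult arrays against 7.23 to 8.90 elsewhere. Hmgcs1 (5.01 to 6.84), Sqle (6.15 to 6.53) and Srebf2, the pathway's transcription factor, were others. Of those 21, 14 were called lower in adult than in embryonic cells, 11 than in ADM and 18 than in tumor cells. The 21 include the 8 adult-low genes, which the rule chose on such differences. Also added afterwards, 7 of 26 annexins and S100 proteins and 7 of 27 nuclear pore and export genes were adult-low and 0 adult-high. None of 26 ribosome assembly, 14 circadian clock and 22 immediate early genes met the rule in either direction. Still, 22 of the 26 ribosome assembly genes were called lower in adult than in tumor cells, 7 than in ADM and 0 than in embryonic cells. Against tumor cells that count was 13 with quantile normalization, 12 with loess and 9 with housekeeping centring. Among the 22 immediate early genes, 8 were called lower and 0 higher than in ADM, and 4 lower and 6 higher than in tumor cells.

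**Figure D5:**
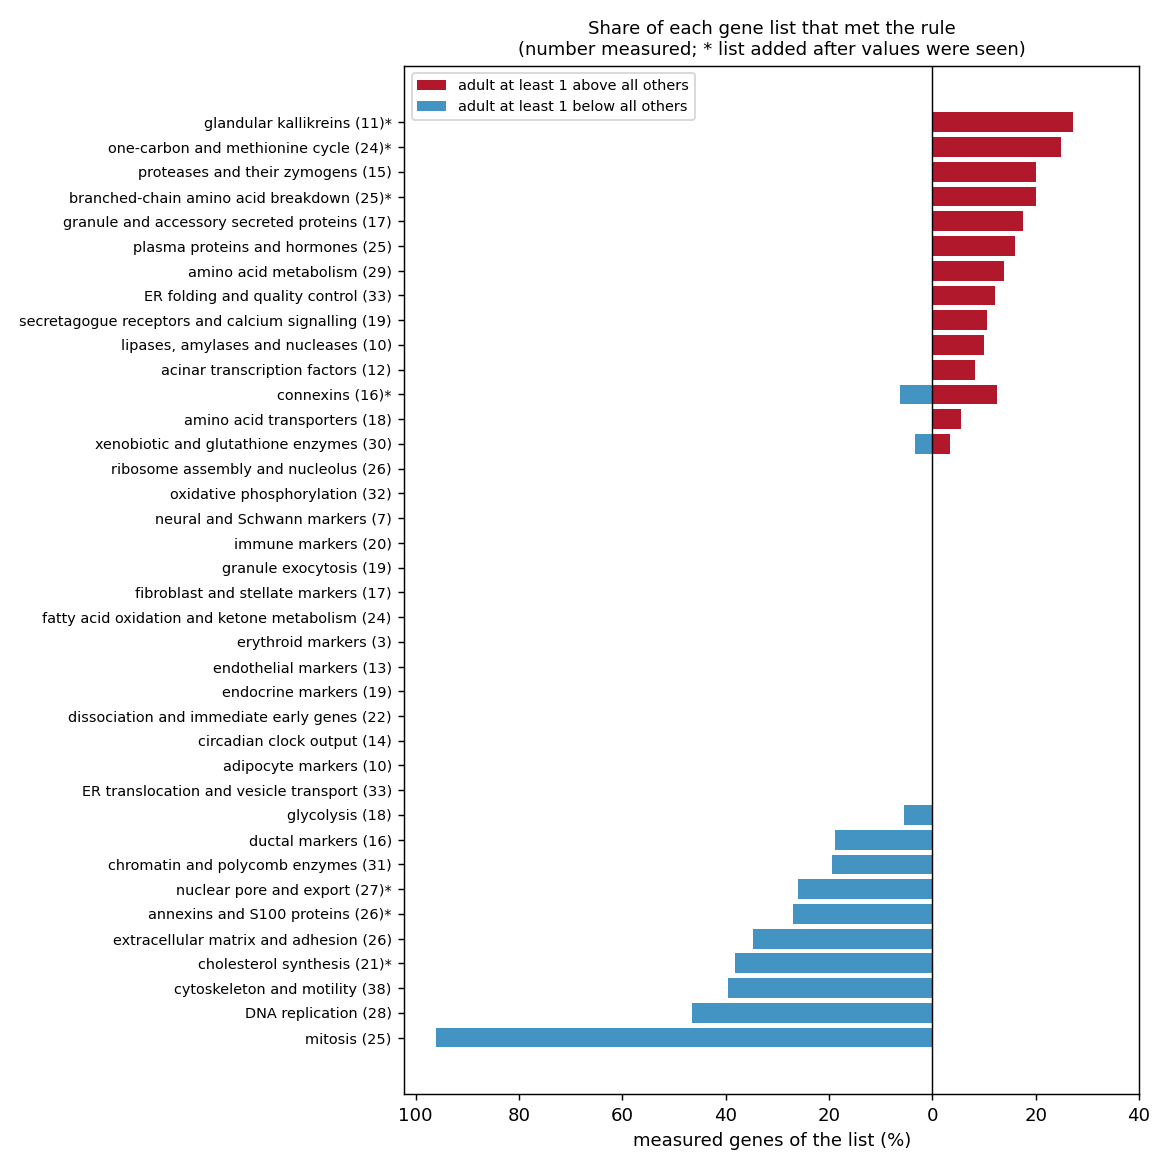
Percentage of the measured genes of each list, the housekeeping list left out, that were adult-high (red, right) or adult-low (blue, left). The number measured stands in brackets and a star marks lists added after the values were seen. The background shares are 0.595% and 1.92% of all genes; mitosis reaches 24 of 25 on the low side, on the high side the kallikreins reach 3 of 11, whereas ER translocation and granule exocytosis have 0 of 33 and 0 of 19.

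Among the other groups, the adult-low genes lay highest in tumor cells. Of the 426, limma called 5 higher (1.17%) and 179 lower (42.0%) in embryonic than in tumor cells (all genes 7.8% and 6.53%). Between embryonic cells and ADM it called 11 higher (2.58%) and 71 lower (16.7%) in embryonic cells (all genes 4.91% and 4.55%). Between tumor cells and ADM it called 127 higher (29.8%) and 9 lower (2.11%) in tumor cells (all genes 3.28% and 5.07%). The median differences were -0.86, -0.15 and 0.56, against -0.07, -0.003 and 0.06 over all genes. With arrays centred on housekeeping genes, the counts lower in embryonic cells were 74 against tumor cells and 46 against ADM, and those higher were 16 and 33. Among named adult-low genes, Cdk1 was 1.80 ± 0.35 (SE, n = 3 per group) higher in tumor cells than in ADM (adjusted p = 0.00329) and Anln 1.94 ± 0.28 (adjusted p = 0.000331). Of the matrix genes, Nid1 was 1.26 ± 0.28 higher as well (adjusted p = 0.00696), Timp1 was 2.16 ± 0.31 lower (adjusted p = 0.000279), and Fn1 differed by -0.32 ± 0.35 (adjusted p = 0.677).

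At the edge of the rule the values were close. Just inside on the high side lay Agtpbp1 (gap 1.00), Cracdl (1.01) and Ell2 (1.02), and just outside Fry and Rnf212 (0.99 each) and n-R5s136 (0.98). On the low side Cavin1, Kdm5a (1.00 each) and Arhgap42 (1.01) were inside, and Srrt, Ube2d1 and Usp37 (0.99 each) outside. A minimum gap of 0.5 in place of 1 would give 397 adult-high and 1101 adult-low genes.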

How the data were processed

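The authors deposited a table of 41345 probe sets on 12 Affymetrix arrays of total RNA. Its deposited values are log2 signals with 2 decimals; the log base was inferred from their range, 1.56 to 13.67, and the summarization software and normalization are not given in the sources used here. Of the probe sets, 23521 had 1 gene symbol in the platform annotation; the brightest per gene over all arrays gave 22180 genes.

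All 12 arrays entered a limma fit of group means (limma 3.58.1, R 4.3.3, two-sided, 8 residual degrees of freedom), tested on simulated data. SE comes from this fit and SD from 3 arrays; the array number limits precision. Python 3.11.15 and pandas 2.3.3 computed the rest.

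The members, the 32 gene lists, the tests and the alternatives were chosen with earlier results of these data known, 7 further lists and the motifs after the values were seen. Named genes were 6 fixed ones, the widest gaps (15 high, 10 low), up to 4 members per list, 3 on either side of the threshold, and the extremes among the other groups. Alternatives were scaling, probe-set averaging, a filter on dim genes, the gap, array weights, a replicate block and leaving out each array.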

Additional observations from a re-analysis of the deposited data

Results flagged for a closer look

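Probe sets outside the gene table carried the adult pattern as well. Of the 1814 probe sets with several gene symbols, 5 were adult-high and 19 adult-low by the same rule. Among those 5 were a kallikrein probe set assigned to Klk1b26 and Egfbp2 (gap 2.31) and a trypsin probe set assigned to Try10 and Gm5409 (gap 1.13), so neither can be given to a single gene. Of the 16010 probe sets with no symbol, 43 were adult-high and 72 adult-low. These were not used in any comparison.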

How the results depend on the processing

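The number of genes set apart depended on scaling and on single arrays. Adult-high genes numbered 225 after quantile normalization, 215 after loess and 180 after housekeeping centring, adult-low genes 282, 266 and 227. Gaps of 0.5 and 2 gave 397 and 15 adult-high and 1101 and 83 adult-low genes. Quantile normalization called 986 genes higher in adult than in embryonic cells. Housekeeping centring moved the median of all genes from 0.09, 0.11 and 0.09 to 0.18, 0.58 and 0.76 against embryonic, ADM and tumor cells, called 3370 higher and 1568 lower against ADM, and 6103 higher and 1488 lower against tumor cells. The share of calls that were higher, 20.7%, 25.3% and 29.8%, became 36.02%, 40.6% and 42.6% with quantile normalization, 30.9%, 40.6% and 47.0% with loess, and 27.6%, 68.3% and 80.4% with housekeeping centring. Of the adult-low genes, loess called 8 higher in embryonic than in tumor cells. Housekeeping centring called 16 higher and 74 lower there, and 33 higher and 46 lower between embryonic cells and ADM. On the deposited values the 12 housekeeping genes measured had median differences of -0.42, -0.81 and -0.92 against embryonic, ADM and tumor cells. Of them 0, 4 and 5 were called lower in adult cells and 0 higher, and 0 met the rule. The cause of these shifts was not tested. Leaving out an array, which can only add genes, gave 134 to 182 adult-high (182 without embryonic replicate 2) and 430 to 565 adult-low genes. The adult-low genes called higher in embryonic cells than in ADM numbered 6 to 12, with 6 without embryonic replicate 1 or 3 and 7 without ADM replicate 2, against 11.

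Same-numbered arrays shared little deviation from their group means, with correlations of -0.0476 to 0.128 over 18 pairs. Differently numbered arrays gave -0.1224 to 0.1099 over 36 pairs. Correlations over all genes cannot exclude that same-numbered arrays were paired, and the labels do not say. With the replicate block, 582 genes were higher and 2217 lower in adult than in embryonic cells, and no count moved by over 1.5 times. No named gene reversed under any alternative run, but sizes did change. Across the alternatives, the gap of a named gene was classed as moved 106 times and as the same 1152 times. Differences between groups were classed as weaker 86 times, stronger 78 times and the same 4681 times. Signals near background limit the dimmest genes.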
